A study of Homo sapiens with 7 samples.

Results

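Non-homologous end joining genes were described in T47D, a human line of luminal breast cancer that carries the estrogen receptor, and in resistant clone 4 and resistant clone 2, lines derived from it that are resistant to palbociclib, an inhibitor of the cell cycle kinases CDK4 and CDK6. The members were 10 genes named for their part in this repair pathway: XRCC5, XRCC6, PRKDC, DCLRE1C, POLM, POLL, XRCC4, LIG4, NHEJ1 and TP53BP1. All 10 were found by gene symbol among the 63677 genes of the count table, and 9 passed a filter on low counts. RNA was sequenced from 3 libraries of palbociclib-sensitive parental cells (T47D_PAR), 2 of resistant clone 4 and 2 of resistant clone 2, which the labels call biological replicates. Resistant cells had grown in palbociclib for 6 months, from 1 uM to 5 uM, and experiments were run without the drug unless noted, per the labels' protocols. Each resistant group is 1 clone, so its libraries describe that clone, and lasting effects of the drug exposure and resistance itself cannot be told apart. Nothing in the labels says that replicates were separate cultures, and p-values then measure only the spread between these libraries, which may be technical. That spread was unlike between groups. Pairs of libraries differed by a chi-square per degree of freedom of 1.45 in clone 2, 12.0 in clone 4 and 5.05 to 15.8 in parental cells. All groups shared 1 estimate of spread per gene, so the SEs and p-values below do not describe each group's own spread.

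Non-homologous end joining rejoins both ends of a DNA double-strand break without a template and can act throughout the cell cycle, whereas homologous recombination needs a sister chromatid. The ring of Ku70 and Ku80 slides onto each end and recruits the kinase DNA-PKcs, nucleases and polymerases trim or fill the ends, and DNA ligase IV with its partner XRCC4 seals them. The protein 53BP1 acts beside this machinery on the chromatin around the break, where it restrains the resection that commits an end to recombination. In breast cancer cells the balance between these routes is of interest because loss of end-joining or 53BP1 function can alter the response to drugs that damage DNA.

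Libraries held 10997625 to 17524621 counts. Levels below are library-size normalised counts (CPM) scaled by the trimmed mean of M-values (TMM), and a gene was called at an edgeR quasi-likelihood adjusted p below 0.05 over all 17502 genes tested. The 10 luminal markers (among them ESR1, GATA3, KRT8 and KRT18) were present in every library, summing to 15730 to 19044 CPM in parental cells, 12689 to 13771 in clone 4 and 10883 to 11296 in clone 2, with 1 called higher and 3 lower in clone 4 and 6 lower in clone 2. The 8 leukocyte markers summed to 3.51 to 6.40 CPM over all libraries, with TYROBP at 0 in all of them and PTPRC at 0 or 1 counts. The 8 fibroblast markers summed to 40.2 to 42.4 CPM in parental cells, 71.6 to 104 in clone 4 and 214 to 238 in clone 2. COL1A1 made up nearly all of that sum in parental cells and clone 4, joined in clone 2 by COL3A1 (1209 and 1499 counts there, and 0 or 1 in the other libraries). Of the 4 fibroblast markers tested, 1 was called higher in clone 4 and all 4 in clone 2. Beside the marker counts of this paragraph, 22.1% of all genes were called higher and 22.3% lower in clone 4. In clone 2 the shares were 21.7% and 20.8%. LUM (33 and 60 counts, against 0 to 9 elsewhere) and DCN (9 and 17, against 1 to 4) were among the fibroblast markers called in clone 2. COL3A1, LUM and DCN passed the filter on low counts only through clone 2, the group where they are high. The count of 4 there was thus largely set by the filter. FAP was at 0 counts throughout, and PDGFRB at 0 or 1. The 10 proliferation markers summed to 1797 to 2465 CPM in parental cells, 1828 to 2006 in clone 4 and 1638 to 1665 in clone 2, with 1 called higher and 1 lower in clone 4 and 4 lower in clone 2. The part of these markers in the results below was not tested, and in bulk RNA fewer cells of a type and less RNA per cell cannot be told apart.

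The end-joining genes moved in both directions. Against parental cells, clone 4 had 1 member higher and 4 lower of the 9 tested, and clone 2 had 3 higher and 3 lower. These counts of 5 and 6 called members stand beside a background of 44.4% of all genes called in clone 4 and 42.5% in clone 2, so a call as such does not set the members apart. By direction, 22.1% of all genes were called higher and 22.3% lower in clone 4, and 21.7% and 20.8% in clone 2. The median log2 fold change of the 9 members was -0.13 in clone 4 and -0.16 in clone 2, against medians of 0.01 and 0.02 over all genes tested. Both comparisons share the parental libraries, so their values are set side by side and are not independent. When a fold of at least 1.5 was required, LIG4 and POLM were called in clone 4 and POLM alone in clone 2, where 13.6% and 12.4% of all genes were called. Clone 2 differed from clone 4 in 2 members, PRKDC and TP53BP1, both higher, where 36.5% of all genes were called (19.6% higher and 17% lower). These counts moved with single libraries, and so did the calls over all genes. Between the clones 5 members were called without parental replicate 3. There 7348 of 17297 genes were called, against 6396 of 17502 with all libraries. Leaving out a clone 2 library leaves 1 library in that group. Fewer members were then called in clone 2 against parental cells and between the clones, and fewer of all genes too. The same held between the clones without clone 4 replicate 2, so no counts are given for these fits here. With that fold required, PRKDC alone was called between the clones, where 7.96% of all genes were. The libraries of the groups compared did not overlap for 6 members in clone 4, 8 in clone 2 and 5 between the clones, beside 61.2%, 65.8% and 72.2% of all genes.

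**Figure D1:**
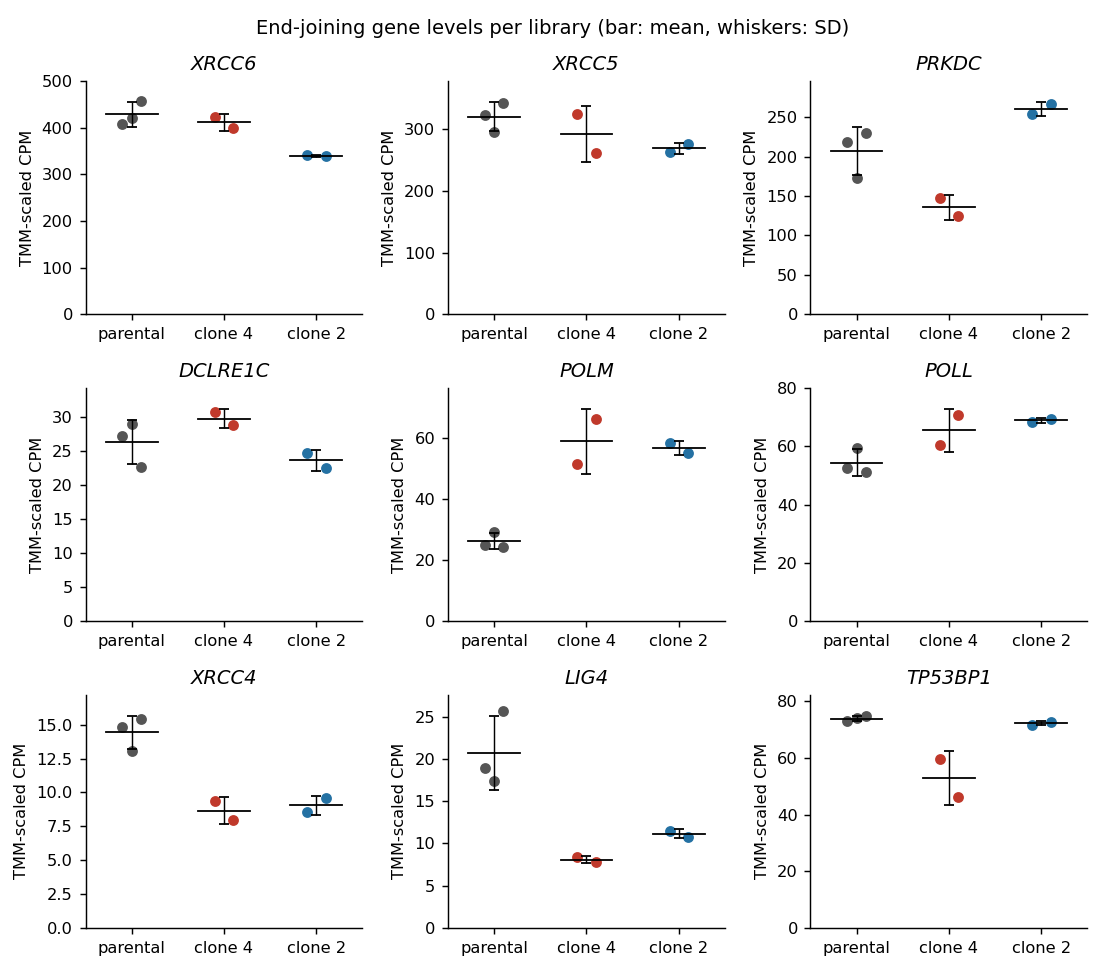
TMM-scaled CPM of 9 end-joining genes in each library, with parental cells in grey, clone 4 in red and clone 2 in blue. Points are libraries, bars are means and whiskers are SD. POLM was above every parental library in both clones, LIG4 and XRCC4 were below, and PRKDC was lower in clone 4 and higher in clone 2.

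Ku forms the first layer of the pathway, and its genes had the highest levels per kilobase of exon, given further on. XRCC6, which encodes Ku70, stood at 408, 420 and 458 CPM in parental cells, 424 and 399 in clone 4, and 341 and 339 in clone 2. The clone 2 libraries were below all others, while clone 4 overlapped parental cells. XRCC6 fell by 0.33 on the log2 scale in clone 2 (SE 0.097, edgeR adjusted p = 0.013) and was not called in clone 4 (-0.06, SE 0.096, adjusted p = 0.642). This call ended when clone 2 replicate 1 or 2 was left out (adjusted p = 0.102 and 0.119). XRCC5, which encodes Ku80, had 324, 296 and 343 CPM in parental cells, 325 and 261 in clone 4, and 263 and 276 in clone 2. Clone 4 overlapped parental cells and clone 2 lay below them. XRCC5 was not called in clone 4 (-0.13, SE 0.11, edgeR adjusted p = 0.369) or clone 2 (-0.25, SE 0.11, adjusted p = 0.0877), although it was called lower in clone 2 in 4 of 14 alternatives. These were leaving out clone 4 replicate 1 or 2 (adjusted p = 0.0385 and 0.0375), no filter (0.0476) and only the compared groups in the fit (0.0474).

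PRKDC, which encodes DNA-PKcs, the kinase that Ku brings to the break, parted the clones. Its levels were 219, 173 and 230.0 CPM in parental cells, 147 and 124 in clone 4, and 254 and 266 in clone 2. The 3 groups did not overlap, with clone 4 lowest and clone 2 highest. PRKDC fell by 0.61 on the log2 scale in clone 4 (SE 0.13, edgeR adjusted p = 0.0017). It rose by 0.33 in clone 2 (SE 0.12, adjusted p = 0.0452), which missed the threshold when clone 2 replicate 1 or 2 was dropped (adjusted p = 0.148 and 0.252), without parental replicate 1 or 2 (adjusted p = 0.0639 and 0.154), with RLE scaling (adjusted p = 0.06) and with DESeq2 (adjusted p = 0.0597). The call was kept in 7 of 14 alternatives. Directly compared, clone 2 was 1.92-fold higher than clone 4, or 0.94 on the log2 scale (SE 0.14, adjusted p = 0.000216). That difference was called under every alternative run, with log2 fold changes of 0.81 to 1.06. Only 14.7% of all genes differed more between the clones.

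Among the end-processing genes POLM changed most. DCLRE1C encodes Artemis, the nuclease that DNA-PKcs activates to open hairpins and trim overhangs. It stood at 27.2, 28.9 and 22.6 CPM in parental cells, 30.7 and 28.7 in clone 4, and 24.7 and 22.5 in clone 2. Each clone overlapped parental cells, and DCLRE1C was called in neither (log2 fold changes 0.18 and -0.16, SE 0.13 each, edgeR adjusted p = 0.275 and 0.338). Clone 2 was 0.34 below clone 4 and not called (-0.34, SE 0.14, adjusted p = 0.0747). It was called lower in 3 of 14 alternatives, among them without parental replicate 3 (adjusted p = 0.0319) and with only the clones in the fit (adjusted p = 0.0311).

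POLM encodes DNA polymerase mu, a family X enzyme that fills gaps at ends with little or no base pairing. Its levels were 24.8, 29.1 and 24.4 CPM in parental cells, 51.3 and 66.3 in clone 4, and 58.3 and 55.0 in clone 2. Every resistant library was above every parental one. POLM rose 2.25-fold in clone 4, or 1.17 on the log2 scale (SE 0.13, edgeR adjusted p = 8.66e-06), and 2.17-fold in clone 2, at 1.11 (SE 0.13, adjusted p = 1.45e-05). Both calls held under every alternative run, with log2 fold changes of 0.97 to 1.34 in clone 4 and 1.06 to 1.20 in clone 2. The clones were not called different from each other (-0.05, SE 0.14, adjusted p = 0.794). Between 12.5% and 13% of all genes changed more in each comparison.

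POLL encodes DNA polymerase lambda, the related gap-filling enzyme, which needs more pairing between the ends. It stood at 52.5, 59.6 and 51.0 CPM in parental cells, 60.3 and 70.6 in clone 4, and 68.3 and 69.5 in clone 2. The resistant libraries were all above the parental ones, by a small margin for clone 4 replicate 1. POLL rose by 0.34 on the log2 scale in clone 2 (SE 0.11, edgeR adjusted p = 0.0222) and was at 0.27 and not called in clone 4 (SE 0.11, adjusted p = 0.0639). The clone 2 call was lost without parental replicate 1 (adjusted p = 0.0764) and when clone 2 replicate 1 or 2 was dropped (adjusted p = 0.127 and 0.162), and clone 4 was called without parental replicate 2 or clone 4 replicate 1 (adjusted p = 0.0354 and 0.0268). In GENCODE 29 POLL lies within DPCD on the opposite strand, and with no strand setting given the reads of such overlapping genes cannot be told apart. DPCD was at 0.32 in clone 4 (SE 0.11, called higher) and -0.21 in clone 2 (SE 0.12, not called). The same limit holds for XRCC4 with TMEM167A, DCLRE1C with SUV39H2 and TP53BP1 with TUBGCP4.

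The ligation genes LIG4 and XRCC4 were lower in both clones. LIG4, the ligase that seals the break, had 19.0, 17.4 and 25.7 CPM in parental cells, 8.38 and 7.76 in clone 4, and 11.5 and 10.8 in clone 2. The groups did not overlap, and clone 4 was lowest. LIG4 fell by 1.35 on the log2 scale in clone 4 (SE 0.18, edgeR adjusted p = 4.74e-05) and by 0.89 in clone 2 (SE 0.17, adjusted p = 0.000934). The clone 4 call held under every alternative run (-1.47 to -1.17), and the clone 2 call was lost only in the test against a fold of 1.5 (adjusted p = 0.0887). Clone 2 was 0.46 above clone 4 and not called (SE 0.20, adjusted p = 0.0864). It was called without parental replicate 3 (adjusted p = 0.0228) and with only the clones in the fit (adjusted p = 0.0447), in 3 of 14 alternatives in all.

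XRCC4, whose protein stabilises the ligase, had 14.9, 13.0 and 15.4 CPM in parental cells, 9.34 and 7.93 in clone 4, and 8.53 and 9.56 in clone 2. Every resistant library was below every parental one, and the clones overlapped. XRCC4 fell by 0.73 on the log2 scale in clone 4 (SE 0.16, edgeR adjusted p = 0.00186) and by 0.66 in clone 2 (SE 0.15, adjusted p = 0.00337). Leaving out clone 2 replicate 1 ended the clone 2 call (adjusted p = 0.0535). NHEJ1 encodes XLF, which bridges the ends with XRCC4. It was listed with 2 counts over the parental libraries, 1 over clone 4 and 0 over clone 2, and a count of 0 in clone 2 allows up to 0.112 CPM. No fold is given, since all groups were at or under 3 counts. In GENCODE 29 a same-strand gene, AC068946.1, covers nearly all of NHEJ1. Whether an overlapping gene model took its reads in the authors' counting was not tested.

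TP53BP1, which encodes 53BP1, was lower in clone 4. Its levels were 72.9, 74.3 and 74.8 CPM in parental cells, 59.6 and 46.1 in clone 4, and 71.8 and 72.9 in clone 2. Clone 4 was below all other libraries, while clone 2 lay just below the parental libraries. TP53BP1 fell by 0.48 on the log2 scale in clone 4 (SE 0.11, edgeR adjusted p = 0.00396) and was at -0.03 in clone 2 (SE 0.11, adjusted p = 0.843). Leaving out clone 4 replicate 2 ended the clone 4 call (-0.31, adjusted p = 0.0514). Clone 2 exceeded clone 4 by 0.45 (SE 0.12, adjusted p = 0.0121), which also ended when clone 4 replicate 2 was dropped (0.27, adjusted p = 0.112), or clone 2 replicate 1 or 2 (adjusted p = 0.0685 and 0.0885).

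**Figure D2:**
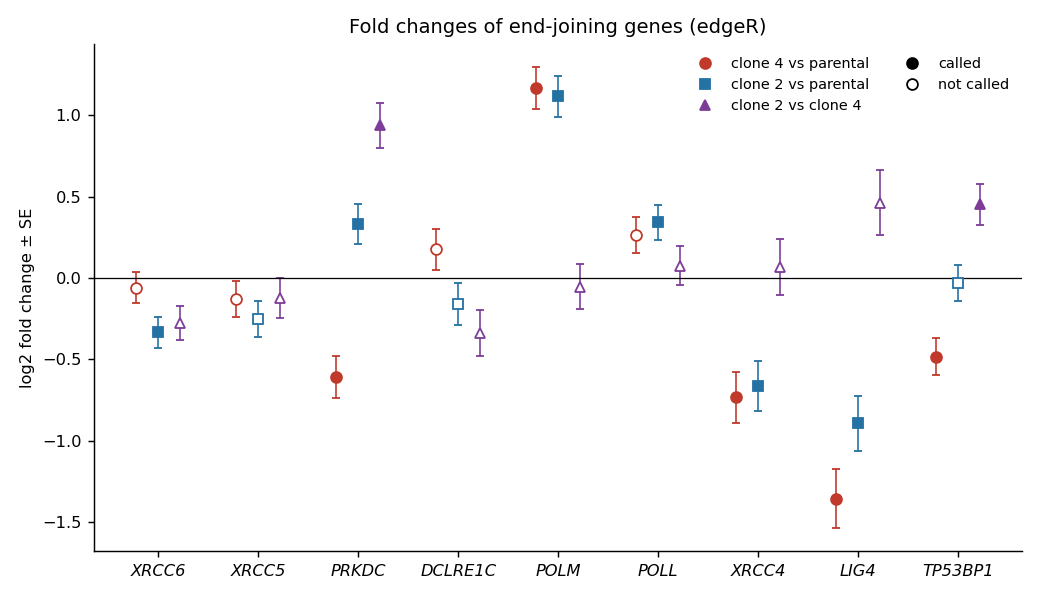
Log2 fold change with SE of each end-joining gene in the 3 comparisons, from edgeR. Filled symbols passed an adjusted p of 0.05 and open symbols did not. POLM was the highest in both clones (1.17 and 1.11), LIG4 the lowest (-1.35 and -0.89), and PRKDC lay on opposite sides of 0.

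Per kilobase of annotated exon, the order of levels in parental cells was led by XRCC6 at 130.4 ± 7.9 CPM per kb (SD, n = 3) and XRCC5 at 58.7 ± 4.3. PRKDC followed at 13.4 ± 2.0 and POLL at 10.0 ± 0.84. POLM (5.81 ± 0.58), TP53BP1 (5.70 ± 0.073), XRCC4 (5.39 ± 0.46), LIG4 (4.72 ± 1.0) and DCLRE1C (4.15 ± 0.51) lay close together, and neighbours in that order differed by less than the larger of their SDs. In clone 4 POLM reached 13.1 ± 2.4 (SD, n = 2) and POLL 12.1 ± 1.3, and in clone 2 they were at 12.6 ± 0.52 and 12.7 ± 0.16, so the polymerases stood level there. LIG4 was the least abundant tested member in both clones on this scale, at 1.84 ± 0.099 and 2.54 ± 0.12. Exon lengths were taken from GENCODE 29 over all isoforms of a gene, so the order rests on that annotation.

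Ratios of counts within a library need no scaling between libraries. The permutation tests below take the 4 resistant libraries as separate units, although libraries of the same clone are not independent. Their p-values describe these libraries and not resistant cells in general. The ratio of POLL to POLM was 2.12, 2.05 and 2.09 in parental cells, 1.18 and 1.07 in clone 4, and 1.17 and 1.26 in clone 2. All 4 resistant libraries were below all parental ones, and the log2 ratio differed by -0.84 between resistant and parental libraries (exact two-sided permutation p = 0.0286, the smallest that 3 against 4 libraries allow, adjusted p = 0.143 over 5 pairs). The ratio of PRKDC to XRCC6 was 0.537, 0.411 and 0.502 in parental cells, 0.348 and 0.312 in clone 4, and 0.744 and 0.786 in clone 2, with no overlap between the groups. TP53BP1 to XRCC6 was 0.163 to 0.179 in parental cells, 0.115 to 0.141 in clone 4 and 0.210 to 0.215 in clone 2, again without overlap. For these pairs the clones lay on opposite sides of parental cells, and the resistant libraries as 1 set did not pass the test (exact permutation p = 0.886 and 0.857). In clone 2 against parental cells the log2 fold change was -0.33 for XRCC6, 0.33 for PRKDC and -0.03 for TP53BP1. XRCC5 to XRCC6 was 0.705 to 0.794 in parental cells, 0.654 to 0.768 in clone 4 and 0.771 to 0.814 in clone 2. Parental cells overlapped each clone, while the clones did not overlap each other. The test over both clones (exact permutation p = 1) pools values on either side of parental cells and does not show that the ratio stayed the same. LIG4 to XRCC4 was 1.28, 1.34 and 1.67 in parental cells, 0.897 and 0.979 in clone 4, and 1.35 and 1.13 in clone 2. Clone 4 was below all other libraries there, and the pooled test was not passed (exact permutation p = 0.114).

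**Figure D3:**
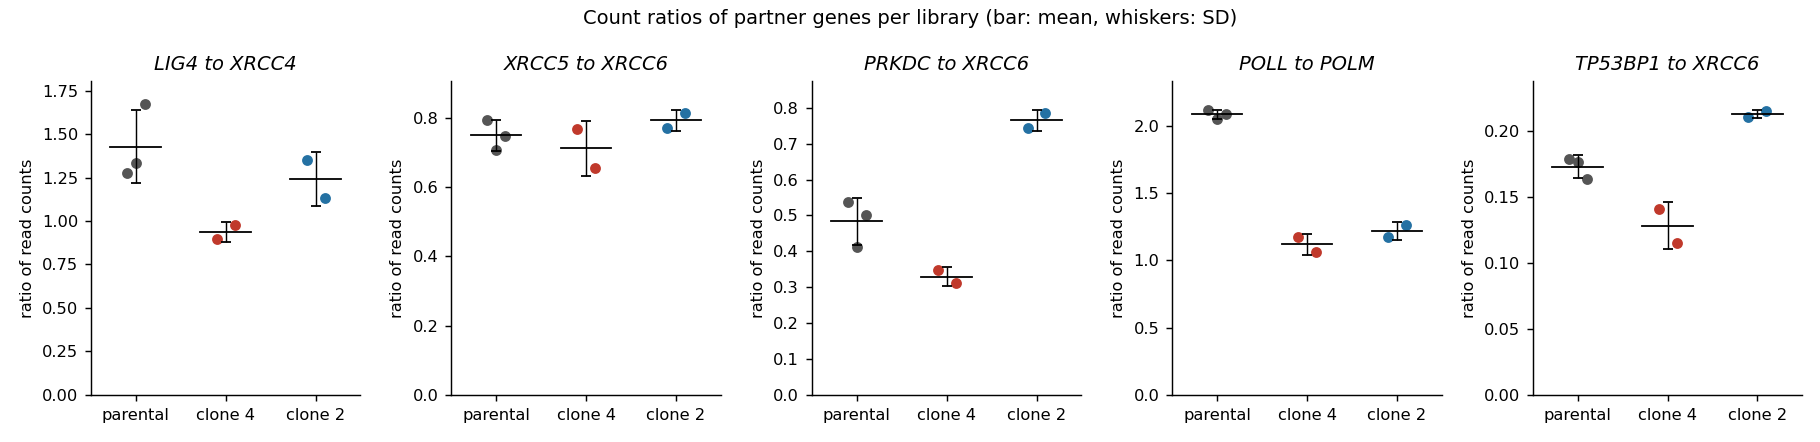
Ratio of raw read counts of partner genes in each library for 5 pairs, with bars for means and whiskers for SD. POLL to POLM was 2.05 to 2.12 in parental cells and 1.07 to 1.26 in resistant libraries, while XRCC5 to XRCC6 overlapped between parental cells and each clone.

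Several end-joining genes start beside another gene on the opposite strand, and what such starts have to do with their levels was not tested. The windows of 250 bases before to 50 after the start are shown for the members changed at least 1.5-fold in both clones, from RefSeq on GRCh38.p14. LIG4 lies on the minus strand at chr13:108218300-108218599, POLM on the minus strand at chr7:44082481-44082780 and XRCC4 on the plus strand at chr5:83077297-83077596. Each is written 5′ to 3′, and capitals mark the matches named after them.
LIG4: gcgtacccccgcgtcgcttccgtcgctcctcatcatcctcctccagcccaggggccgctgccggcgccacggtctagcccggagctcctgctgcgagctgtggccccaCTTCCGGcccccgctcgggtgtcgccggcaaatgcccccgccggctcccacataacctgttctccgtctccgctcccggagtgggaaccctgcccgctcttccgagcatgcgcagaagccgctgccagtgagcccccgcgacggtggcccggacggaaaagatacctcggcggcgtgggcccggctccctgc
XRCC4: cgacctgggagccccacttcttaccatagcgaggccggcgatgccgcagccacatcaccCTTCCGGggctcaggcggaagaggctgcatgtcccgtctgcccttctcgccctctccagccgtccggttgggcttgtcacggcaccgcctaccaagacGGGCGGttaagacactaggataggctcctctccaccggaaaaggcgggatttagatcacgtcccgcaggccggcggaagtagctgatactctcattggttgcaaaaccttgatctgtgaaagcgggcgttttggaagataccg
POLM: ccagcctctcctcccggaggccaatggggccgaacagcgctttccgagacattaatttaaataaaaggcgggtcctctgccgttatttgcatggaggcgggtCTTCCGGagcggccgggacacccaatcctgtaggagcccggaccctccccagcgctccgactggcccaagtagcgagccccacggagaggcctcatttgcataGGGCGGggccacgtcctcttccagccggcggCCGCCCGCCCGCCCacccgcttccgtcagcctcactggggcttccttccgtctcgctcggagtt
Windows were available for 8 of the 10 members, and for each member the window of its outermost start was used. The shares over all 35116 windows were taken without such a choice per gene, so the sets set side by side are unlike. The capitals on these strands include reverse complements (CTTCCGG and CCGCCC). Both strands were searched for a STAT motif (TTCNNNGAA), an interferon response motif, a pair of E2F motifs (TTTCCCGC and TTTGGCGC), an ETS motif (CCGGAAG), an NRF1 motif, a GC box (GGGCGG) and a cyclic AMP response motif (TGACGTCA). The ETS letters were in 5 of the 8 windows, those of LIG4, XRCC4, POLM, POLL and TP53BP1, and in 10.3% of the 35116 RefSeq windows. The GC box letters were in 6 of the 8, against 45% of all windows, with 4 matches in POLM, some of them overlapping, 1 in XRCC4 and none in LIG4. TTTGGCGC was in the XRCC6 window, against 0.652% of all windows. The letters of the other motifs, which 7.66% (STAT), 3.57% (interferon), 1.63% (TTTCCCGC), 1.24% (NRF1) and 1.85% (cyclic AMP) of all windows held, were in none of the 8. These matches are descriptions of letters and not binding sites, and genes that rose and genes that fell shared the ETS letters.

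The gene that starts head to head with LIG4 moved with it, as did most tested genes of chromosome 13, given below. ABHD13, an abhydrolase-domain protein gene whose start lies 11 bases from that of LIG4 in GENCODE 29, had 23.3, 17.0 and 19.9 CPM in parental cells, 6.87 and 5.43 in clone 4, and 9.73 and 9.38 in clone 2. The groups did not overlap, and ABHD13 fell by 1.69 on the log2 scale in clone 4 (SE 0.18) and by 1.07 in clone 2 (SE 0.17), called in both. TMEM167A, which overlaps the start of XRCC4 on the opposite strand, went from 133 to 162 CPM in parental cells to 106 and 89.1 in clone 4 and 85.8 and 93.3 in clone 2. It fell by 0.61 (SE 0.12) and 0.74 (SE 0.12). PRKDC and its partner did not move together. MCM4, a replicative helicase subunit gene that starts 2 bases from PRKDC, was called in neither clone (0.21, SE 0.11, and 0.10, SE 0.11), nor was DESI1 beside XRCC6 (0.20 and -0.05, SE 0.13 each). MCM4 was called higher in clone 4 without parental replicate 3 (adjusted p = 0.043). MAP1A beside TP53BP1 was called higher in both clones (0.61 and 0.67, SE 0.22 each) at 2.64 to 6.31 CPM over all libraries. These calls were weak, with 3 of 14 alternatives keeping the one in clone 4 and 8 of 14 the one in clone 2. In clone 4 it lost its call with DESeq2 (adjusted p = 0.089) and without parental replicate 1 or 3, or any resistant library (edgeR adjusted p of 0.059 to 0.177). In clone 2 it lost it without parental replicate 3 or either clone 2 library (0.0593 to 0.197).

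The fall of LIG4 was shared by its stretch of chromosome 13. The 3 nearest tested genes on either side were all lower in clone 4, with log2 fold changes from -2.98 for EFNB2, which encodes the ligand ephrin-B2, to -1.24 for FAM155A. In clone 2 all but EFNB2 of these 6 were lower, among them IRS2, an insulin receptor substrate gene, at -1.20 (SE 0.37) and RAB20 at -0.87 (SE 0.12). Along the whole chromosome, 203 of 243 tested genes were lower in clone 4 and 4 higher, and the median of their log2 values was -1.15. In clone 2 138 were lower and 11 higher, and the median was -0.53. LIG4 was at -1.35 and -0.89. On chromosome 15, which carries TP53BP1, 56.1% of 567 tested genes were lower in clone 4 (median -0.49, against -0.48 for TP53BP1) and 37.6% in clone 2 (median -0.22, against -0.03). What these chromosome-wide shifts have to do with the members was not tested.

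Around POLM on chromosome 7 all 6 neighbours were higher in clone 4 and 5 of 6 in clone 2, most by less than POLM. POLD2, a subunit gene of DNA polymerase delta, rose by 0.37 (SE 0.093) and 0.31 (SE 0.093), and DBNL by 0.43 (SE 0.093) and 0.49 (SE 0.093). PGAM2 (1.58, SE 0.21, and 1.62, SE 0.21) and CAMK2B (2.01, SE 0.27, and 3.12, SE 0.25) had larger values than POLM. Over the chromosome 33.4% of 812 tested genes were higher in clone 4 (median 0.20) and 28.7% in clone 2 (median 0.12). The neighbours of XRCC4 on chromosome 5 showed no common direction, with TMEM167A alone of 6 called lower in clone 4, and 1 higher and 3 lower in clone 2. Those of PRKDC on chromosome 8 had 1 higher and 2 lower in each clone, and chromosome 8 as a whole had medians of -0.01 and 0.02.

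**Figure D4:**
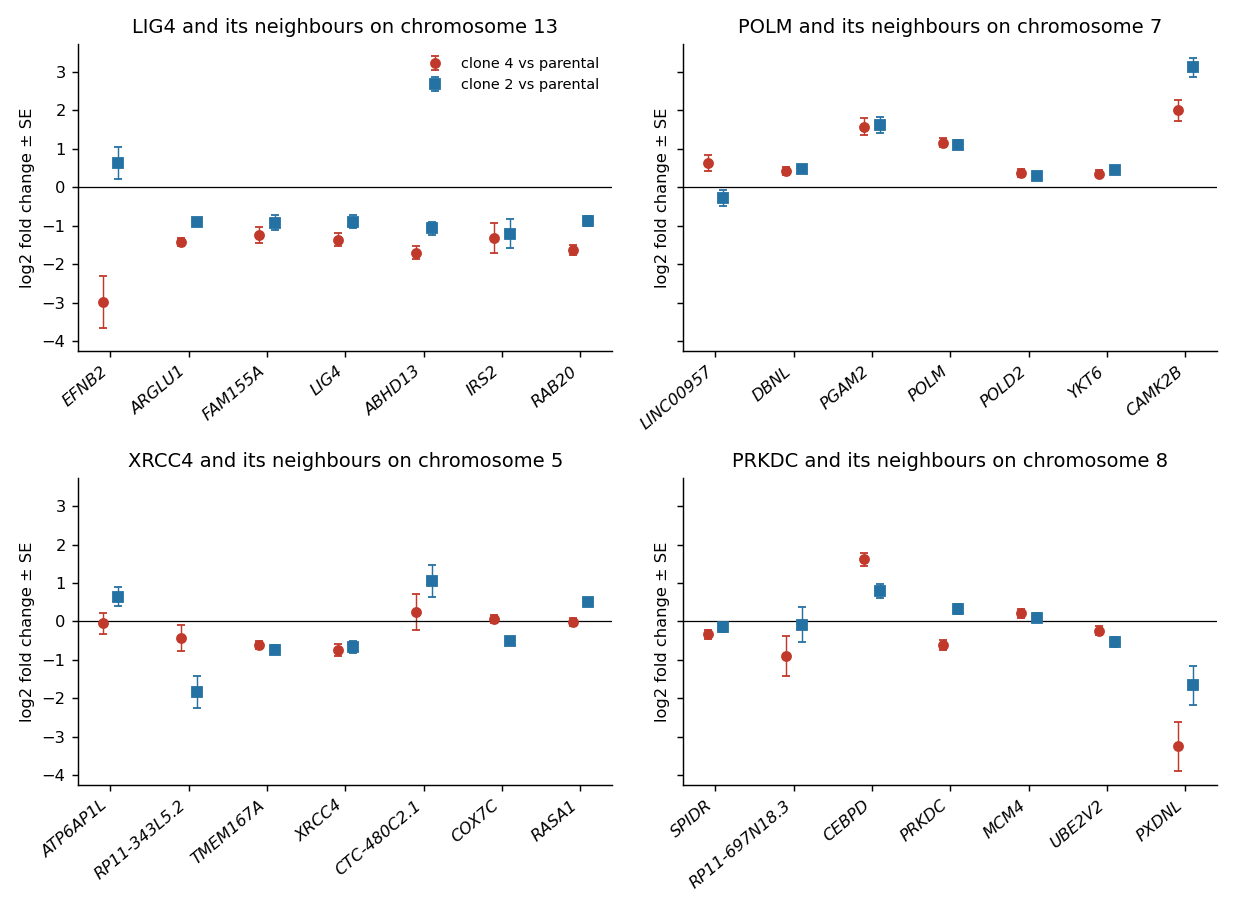
Log2 fold change with SE against parental cells of LIG4, POLM, XRCC4 and PRKDC and of the 3 nearest tested genes on either side, in chromosome order. In clone 4 (red circles) the 6 genes around LIG4 were lower and the 6 around POLM higher. Clone 2 is shown as blue squares.

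Other genes of end joining were called in both directions, beside 44.4% of all genes called in clone 4 and 42.5% in clone 2. Among 11 accessory factors, of which 9 were tested, 1 rose and 1 fell in clone 4, and 2 rose and none fell in clone 2 (medians 0.17 and -0.02). PAXX, listed as C9orf142, which stabilises Ku on the end, rose by 0.55 in clone 4 (SE 0.16), and ERCC6L2 fell by 1.16 (SE 0.18). APLF, a scaffold that binds Ku, had 0, 3 and 2 counts in the parental libraries, 3 and 5 in clone 4 and 10 and 17 in clone 2. It passed the filter on low counts only through clone 2, the group where it is high, so no fold or p is given, although it is 1 of the 2 counted as higher in clone 2 and between the clones. Against clone 4, clone 2 was higher in ERCC6L2 (1.15, SE 0.20) and lower in PAXX (-0.67, SE 0.17) and APTX (-0.33, SE 0.12). The 4 calls among 9 accessory genes between the clones, APLF included, stand beside 36.5% of all genes. Fewer of these 4 were called without clone 4 replicate 2 or either clone 2 library. Such fits leave 1 library in a group, and fewer of all genes were called in them too. In clone 4 1 accessory call was left without parental replicate 1. There 6237 of 17499 genes were called, against 7771 of 17502 with all libraries. Accessory calls were also fewer in clone 4 without clone 4 replicate 2, and in clone 2 without either clone 2 library. Again fewer of all genes were called there. The lymphoid enzyme gene DNTT, a relative of POLM, had 1 count over all 7 libraries. RAG1 and RAG2, which cut DNA for antigen receptor assembly in lymphocytes, had 74 to 135 and 32 to 63 counts per library and were called in neither clone.

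Of 17 genes linked to 53BP1 recruitment and shieldin, not all of which favour 53BP1 binding, 15 were tested. In clone 4 1 rose and 2 fell, and in clone 2 none rose and 4 fell, with medians of -0.07 and -0.06. SHLD1, a shieldin subunit listed as C20orf196, fell by 1.24 (SE 0.29) and 1.26 (SE 0.28), from 2.67 CPM in parental cells to 1.13 and 1.12. NUDT16L1, which binds 53BP1, fell by 0.42 (SE 0.11) and 0.49 (SE 0.11). MAD2L2, another shieldin subunit, rose by 0.38 in clone 4 (SE 0.11). DYNLL1, which limits resection, fell by 0.68 in clone 2 (SE 0.10) and was 0.50 below clone 4 there (-0.50, SE 0.11), and KAT5, an acetyltransferase gene, fell by 0.29 in clone 2 (SE 0.11). Of the 15, 7 were called in clone 4 without parental replicate 3, where 8060 of 17297 genes were called. Without clone 2 replicate 2, which leaves 1 library in that group, fewer of the 15 were called in clone 2. Fewer of all genes were called there too.

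The 16 genes of alternative end joining and resection, all tested, included 3 that rose and 4 that fell in clone 4 and 1 that rose and 3 that fell in clone 2, with medians of 0.05 and -0.16. RPA1, which coats single-stranded DNA, fell by 0.61 (SE 0.11) and 0.35 (SE 0.11). In clone 4 the nuclease gene DNA2 rose by 0.60 (SE 0.16), the scaffold gene XRCC1 rose by 0.44 (SE 0.10) and NBN, part of the complex that senses breaks, fell by 0.44 (SE 0.13). In clone 2 RBBP8, whose protein CtIP starts resection, rose by 1.05 on the log2 scale (SE 0.14, edgeR adjusted p = 4.62e-05), while HMCES fell by 0.47 (SE 0.099) and PARP1 by 0.32 (SE 0.098). Between the clones, RBBP8 (0.91, SE 0.15) and RAD50 (0.52, SE 0.14) were higher in clone 2, and XRCC1 (-0.69, SE 0.11) and RPA3 (-0.51, SE 0.11) were lower. POLQ, the polymerase that defines alternative end joining, was called in none of the comparisons. The whole list, called resection genes for short from here on, also holds genes of alternative end joining, POLQ among them. Its 7 of 16 genes called in clone 4 were near the background of 44.4%. Counts in these lists moved with single libraries, as did the calls over all genes. Without parental replicate 1, 4 of the resection genes were called in clone 4 and 2 in clone 2. There 6237 and 6353 of 17499 genes were called. Between the clones 8 were called without parental replicate 3, where 7348 of 17297 genes were. Fewer resection genes were called in clone 4 without clone 4 replicate 2, and in clone 2 without either clone 2 library. The same held between the clones without clone 2 replicate 2. Those fits leave 1 library in a group, and fewer of all genes were called in them too.

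**Figure D5:**
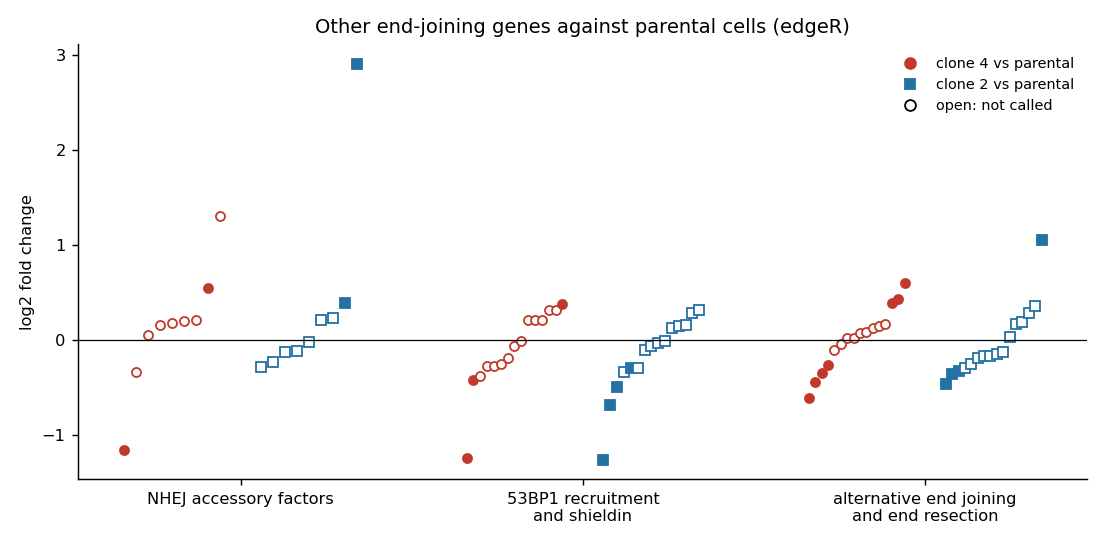
Log2 fold changes against parental cells of the tested genes of 3 lists of other end-joining genes, sorted within each list, with clone 4 as red circles and clone 2 as blue squares. Filled symbols were called and open ones were not. The medians of the lists lay between -0.16 and 0.17. The highest point is APLF in clone 2, which passed the filter on low counts only through that clone.

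Genes with the most similar pattern were sought for the 4 members called in some comparison at an estimated fold of at least 1.5, whether or not they passed the test against that fold, by the Pearson correlation of log2 CPM over the 7 libraries, among 14579 other genes. For LIG4 they were MYO6 (r = 0.993) and HMGB1 (r = 0.993), for XRCC4 CHSY1 (r = 0.996) and NR2F2 (r = 0.995), for PRKDC EPS8 (r = 0.998) and REST (r = 0.996), and for POLM PDIA2 (r = 0.999) and PRICKLE4 (r = 0.997). The 7 points share 3 groups of libraries and their depth, and these values describe likeness of pattern alone.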

How the data were processed

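RNA-seq was analysed from 7 libraries of T47D cells (3 parental, 2 of clone 4, 2 of clone 2), grouped by their labels. The authors deposited 1 table of raw read counts per gene. The submitters' processing notes name FastQC, CASAVA, STAR and hg19 without versions, while for the counting program, the annotation and the strand, nothing is stated by the sources at hand. Columns of values without a sample numbered 0. Rows with a gene ID but no symbol (6724) were kept in library sizes and tests.

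The counts were fitted with edgeR 4.0.16 (quasi-likelihood, robust, TMM scaling, filterByExpr with a minimum count of 10) in R 4.3.3, with all 7 libraries and 3 group means. P-values were adjusted by Benjamini-Hochberg over 17502 genes and called below 0.05. Standard errors are the log2 fold change divided by the square root of F. Ratios of partner genes were compared by exact two-sided permutation of libraries.

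Totals were 10997625 to 17524621 counts, and the common biological coefficient of variation was 0.0997. Limits from a count of 0 cover counting error only. Gene order, strand and exon length came from GENCODE 29 (GRCh38), matched by gene ID for 52526 of 63677 genes, and no coordinate of that annotation is mixed with hg19. Promoter windows came from RefSeq on GRCh38.p14.

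Alternatives were RLE scaling, DESeq2 1.42.0, other filters, a test against a fold of 1.5, only the groups compared, a replicate block and each library left out. Members and lists were chosen with earlier results of these data known. POLQ, the DPCD overlap and the marker genes were named outside the naming rule. The rule named all members, up to 4 called genes with the largest change per related list and contrast, neighbours of members changed at least 1.5-fold, head-to-head partners, and the 2 genes most like each member changed 1.5-fold. A gene that the rule would name is not reported here.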

Additional observations from a re-analysis of the deposited data

Results flagged for a closer look

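Clone 2 and clone 4 differed in their change from the same parental libraries for 2 end-joining genes, by the direct contrast of the clones in edgeR. For PRKDC the change in clone 2 minus that in clone 4 was 0.94 on the log2 scale (SE 0.14, adjusted p = 0.000216), with both clone 2 libraries above and both clone 4 libraries below all parental ones. For TP53BP1 it was 0.45 (SE 0.12, adjusted p = 0.0121), which missed the threshold when clone 4 replicate 2, clone 2 replicate 1 or clone 2 replicate 2 was dropped (adjusted p = 0.112, 0.0685 and 0.0885).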

How the results depend on the processing

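POLM in both clones, LIG4 in clone 4 and PRKDC between the clones were called in all 14 alternatives. Among single-gene values under alternatives, 507 kept direction and side of the threshold, 48 lost a call, 20 gained one and 13 changed sign, and the cause was not tested. The test against a fold of 1.5 called 2 members in clone 4 (1 lower), 1 in clone 2 (1 higher, 0 lower) and 1 between the clones (1 higher), and in clone 4, clone 2 and between the clones 1, 1 and 1 accessory, 1, 1 and 0 53BP1-related and 0, 1 and 0 resection genes. Over all 17502 genes that fold test called 2382 in clone 4, 2177 in clone 2 and 1393 between the clones. RLE and DESeq2 each called 1 member lower between the clones, where they called 6396 and 5255 of 17502 genes. The accessory count between the clones was 2 with DESeq2 and 2 with no filter, and 1 in clone 2 with the stricter filter. With no filter 6 53BP1-related genes were called in clone 4 and 2 between the clones. Of all 33558 genes tested without a filter, 8012 were called in clone 4 and 6555 between the clones. The stricter filter called 7215 of 16200 genes in clone 2. With only the compared groups fitted, 5 members (2 lower) and 9 resection genes differed between the clones, beside 6807 of all 16950 genes. Libraries of the same replicate number had correlations of deviations from their group means of -0.0776 to 0.186. Libraries of unlike number were not compared, so these values do not decide whether the numbers pair the libraries. The clone 2 libraries, described as replicates 1 and 2, are titled 4 and 6, so the block rests on the descriptions. With a replicate block, 5 members (2 lower), 10 resection and 2 53BP1-related genes differed between the clones, and 8 53BP1-related genes in clone 4. Over all 17502 genes the block called 7831 between the clones and 8551 in clone 4. The block also called MCM4 and DESI1 higher in clone 4 (adjusted p = 0.0163 and 0.0436) and, between the clones, LIG4 higher (0.0166) and XRCC6 and DCLRE1C lower (0.0217 and 0.0286). The alternatives for related lists and head-to-head partners, and the chromosome shares, were chosen after seeing the data.

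With each library left out, members called were 4 to 6 in clone 4 (higher 1 to 2, lower 3 to 4), 2 to 7 in clone 2 (higher 1 to 3, lower 1 to 4) and 1 to 5 between the clones (higher 1 to 3, lower 0 to 2). Accessory genes called were 1 to 3, 1 to 3 and 1 to 5, 53BP1-related 2 to 7, 2 to 6 and 1 to 2, and resection genes 3 to 7, 2 to 6 and 3 to 8. Calls over all genes moved too, and these ranges include fits with 1 library in a group. Without a parental library, 6237 to 8060 of all genes were called in clone 4, from 17195 to 17499 tested. In clone 2 they were 6353 to 7712, and between the clones 6018 to 7348. The log2 ratio difference was -0.15 to 0.29 for PRKDC to XRCC6, -0.20 to 0.10 for TP53BP1 to XRCC6, -0.51 to -0.28 for LIG4 to XRCC4, -0.88 to -0.79 for POLL to POLM and -0.04 to 0.07 for XRCC5 to XRCC6. Sign changes were all among values not called. With each library left out, XRCC5 in clone 4 was -0.30 to 0.020 and DESI1 in clone 2 -0.14 to 0.057 (0.063 with the replicate block, and 0.0014 without clone 2 replicate 2). Between the clones XRCC5 was -0.28 to 0.042, XRCC4 -0.051 to 0.19 (-0.018 without clone 2 replicate 2), POLM -0.23 to 0.13, POLL -0.039 to 0.18, TMEM167A -0.25 to 0.0054, MCM4 -0.24 to 0.0078 and MAP1A -0.054 to 0.20 (-0.022 without clone 4 replicate 1). NHEJ1 was too shallow for any test.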
